A study of Mus musculus with 31 samples.

Results

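The 6 genes Cd55, Kcnk5, Tuba8, Slc14a1, Cavin2 and Apoe were followed across 9 sorted populations of mouse bone marrow. They were chosen because their levels were higher in the multipotent progenitor population MPP2 than in its neighbours MPP3 or MPP4. None is in the list of platelet and megakaryocyte genes used here. They are 6 of the 19938 genes measured, and each is read by a single probe. Because MPP2, MPP3 and MPP4 chose them, their differences involving MPP2 are given below as descriptions, and tests are given only for comparisons between other populations. All arrays share the fits of those tests, those of the 3 MPP populations included.

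Multipotent progenitors lie between blood stem cells and committed progenitors. MPP2 is known for a bias towards megakaryocytes, which shed platelets, and towards red cells. MPP3 is known for a bias towards granulocytes and monocytes, and MPP4 towards lymphocytes. The 6 genes encode proteins of unlike kinds. Cd55 encodes decay-accelerating factor, a lipid-anchored surface protein that breaks up the complement enzymes that cleave C3. Kcnk5 encodes TASK-2, a two-pore potassium channel that opens in alkaline conditions, and Slc14a1 encodes urea transporter B, which carries the Kidd blood group on human red cells. Tuba8 encodes an alpha-tubulin isotype of microtubules. Cavin2 encodes a coat protein of caveolae, which are small pits of the plasma membrane. Apoe encodes apolipoprotein E, a secreted and cell-bound carrier of lipid that is known to take up cholesterol exported by ABC transporters.

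The arrays came from wild-type C57BL/6 mice, with 20000 double-sorted bone marrow cells per sample. Stem and multipotent gates shared Lin-, cKit+ and Sca1+. LT-HSC, the long-term stem cells (n = 4), were Flk2-, CD48- and CD150+, and ST-HSC, the short-term stem cells (n = 3), were Flk2-, CD48- and CD150-. MPP2 (n = 3) was Flk2-, CD48+ and CD150+, MPP3 (n = 3) was Flk2-, CD48+ and CD150-, and MPP4 (n = 5) was Flk2+. Common myeloid progenitors, or CMP (n = 3), were Lin-, cKit+, FcγR- and CD34+, and granulocyte-macrophage progenitors, or GMP (n = 4), were Lin-, cKit+, FcγR+ and CD34+. Pre-granulocytes, PreGr (n = 3), were Mac1+ with intermediate Gr1, and granulocytes, Gr (n = 3), were Mac1+ with high Gr1. The CMP gate as labelled states neither Sca1 nor CD150. Age, sex and the number of animals behind each sample are not given in the sources used here, and the submitters also used stem cell and GMP samples of this series as controls elsewhere.

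The deposited arrays fell into 5 array sets, meaning arrays with close medians and with probe values identical between arrays, and the labels do not name these sets. Set 1 holds LT-HSC 1 to 3. Set 2 gathers single arrays of several populations, which are GMP 4, LT-HSC 4 and MPP3 3, with MPP4 4 and 5. Set 3 holds ST-HSC, MPP2 and MPP3 1 and 2, set 4 holds MPP4 1 to 3 and CMP, and set 5 holds GMP 1 to 3, PreGr and Gr. Deposited array medians ran from 6.19 to 6.22 in set 1 and from 7.78 to 7.83 in set 3, so arrays were quantile-normalized, which gives every array the same distribution of values. Levels below are quantile-normalized log2 values, on which a difference of 1 unit doubles the signal. Each test was run without and with the array set as a block (the set-adjusted fit), and a gene is said to rise or fall only where both fits called it in the same direction at an adjusted p under 0.05. In the set-adjusted fit, MPP3 and MPP4 arrays help tie the sets to each other, so for comparisons across sets it is not independent of the populations that chose the genes. Among the genes of the sort markers, Slamf1 (CD150) stood at 8.71 ± 0.61 in LT-HSC, 6.83 ± 0.41 in MPP2, 5.60 ± 0.22 in MPP3 and 5.05 ± 0.34 in ST-HSC (mean ± SD). In CMP, whose gate does not state CD150, Slamf1 stood at 7.25 ± 0.32. Cd48 stood at 9.77 ± 0.55 in MPP2, 10.44 ± 0.14 in MPP3 and 6.80 ± 0.54 in LT-HSC. Flt3 (Flk2) was highest in MPP4 at 11.27 ± 0.54. The Flk2- gates differed in Flt3, at 9.96 ± 0.09 in ST-HSC, 9.72 ± 0.13 in MPP3, 8.21 ± 0.25 in LT-HSC and 8.18 ± 0.48 in MPP2. The table holds no detection calls, so a low plateau cannot be told from background, and levels of different probes are not compared. In RNA from sorted bulk cells, fewer cells of a kind and less RNA per cell cannot be told apart.

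The bases before the start sites of 3 of the genes are shown because these genes moved in the tested comparisons, Cd55 upward into granulocytes and Cavin2 and Apoe downward into GMP. Sequences are from RefSeq (GRCm38.p6), run 5′ to 3′ on the strand of the gene, end at the base before the annotated start, and carry motif matches on either strand in capitals. The Cd55 promoter lies at chr1:130462745-130462994 on the minus strand, the Cavin2 promoter at chr1:51288876-51289125 on the plus strand, and the first of the 3 Apoe promoters in the table at chr7:19699189-19699438 on the minus strand.
Cd55: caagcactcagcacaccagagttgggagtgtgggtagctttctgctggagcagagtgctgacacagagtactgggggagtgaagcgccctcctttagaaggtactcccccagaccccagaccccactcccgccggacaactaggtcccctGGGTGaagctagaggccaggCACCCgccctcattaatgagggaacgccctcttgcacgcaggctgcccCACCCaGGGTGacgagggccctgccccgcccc
Cavin2: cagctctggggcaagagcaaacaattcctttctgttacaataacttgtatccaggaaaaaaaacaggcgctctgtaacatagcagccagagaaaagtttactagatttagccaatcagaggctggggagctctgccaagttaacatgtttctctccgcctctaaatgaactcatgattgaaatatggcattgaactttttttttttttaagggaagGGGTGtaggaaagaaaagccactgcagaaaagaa
Apoe: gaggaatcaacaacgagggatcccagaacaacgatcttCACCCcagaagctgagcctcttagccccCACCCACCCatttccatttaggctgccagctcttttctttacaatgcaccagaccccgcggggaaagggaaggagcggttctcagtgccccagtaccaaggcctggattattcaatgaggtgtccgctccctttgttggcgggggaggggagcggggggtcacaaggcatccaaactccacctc
The motifs searched were AGATAA and TGATAA, which GATA factors bind, CACCC, which KLF factors bind, and the E-boxes CAGATG and CAGGTG, each on both strands. Promoters of 5 of the 6 genes were searched, 7 in all. Slc14a1 was left out of this search, so the counts for the 7 promoters do not cover it. CACCC was present in 5 of the 7 promoters, against 52% of all 32851 promoters cut to the same length. Cd55 carried it 4 times, at bases -100, -80, -32 and -26 from the start site, with those at -80 and -32 on the strand shown. Cavin2 carried it once, from base -34 on the opposite strand, and the Apoe promoter shown carried it 3 times, of which the matches from -184 and -180 share a base. A GATA motif was present in 0 of the 7 promoters and in 16.6% of all promoters, and an E-box in 1 of the 7, another Apoe start site, and in 29.2% of all promoters. A match is a run of letters and shows no binding.

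Cd55 had the widest range of the 6 genes, and its highest level lay outside the progenitors. On MPP2 arrays 1 to 3 it stood at 8.36, 9.07 and 8.21. On MPP3 arrays it stood at 6.96, 7.31 and 5.35, and on MPP4 arrays at 6.24, 6.87, 6.84, 5.03 and 5.65. Every MPP2 array was thus above every MPP3 and MPP4 array, and the lowest values of both belonged to array set 2. LT-HSC overlapped MPP2, at 8.41, 8.79, 8.48 and 7.79. CMP reached 7.60, 8.32 and 7.83, ST-HSC 7.16, 7.12 and 7.69, and PreGr 7.21, 7.59 and 7.26. GMP was the lowest population at 5.61, 5.41, 5.35 and 5.10, and Gr the highest at 9.96, 10.12 and 10.32. From GMP to Gr the means spanned 4.76 log2 units, or 27.2-fold. In descending order of means the populations ran Gr, MPP2, LT-HSC, CMP, PreGr, ST-HSC, MPP3, MPP4 and GMP, and between neighbours the arrays did not overlap only from Gr to MPP2 and from CMP to PreGr. The arrays of set 2 were below the other arrays of their population in LT-HSC (a difference of -0.77), MPP3 (-1.79), MPP4 (-1.30) and GMP (-0.36), so the level of Cd55 moved with the array set. Other genes of the 6 shifted too. Set 2 differed by -1.2 for Cavin2 and -0.86 for Kcnk5 in LT-HSC, -1.01 for Slc14a1 in MPP3 and 0.95 for Apoe in GMP.

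Of the membrane channels and transporters, Kcnk5 had its highest mean in MPP2, with a wide spread. MPP2 arrays stood at 8.92, 9.01 and 7.40. MPP3 arrays stood at 6.49, 7.23 and 6.79, and MPP4 arrays at 7.25, 7.42, 7.05, 6.56 and 6.56. MPP2 array 3 fell among the MPP4 arrays, and the other MPP2 arrays were above all arrays of MPP3 and MPP4. LT-HSC stood at 8.26, 8.53, 8.35 and 7.52, ST-HSC at 7.82, 7.52 and 6.92, and CMP at 7.51, 7.54 and 7.53. GMP, PreGr and Gr formed a flat floor between 6.18 and 6.65. The order of means was MPP2, LT-HSC, CMP, ST-HSC, MPP4, MPP3, Gr, PreGr and GMP, a span of 2.08, and every pair of neighbours overlapped.

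Slc14a1 was highest in CMP and fell into a low plateau from GMP onward. CMP arrays stood at 10.42, 10.71 and 10.65, above every other array. LT-HSC stood at 9.88, 9.87, 9.88 and 9.43, and MPP2 at 9.46, 9.80 and 10.01, so these populations overlapped. ST-HSC stood at 8.87, 8.87 and 9.06, MPP4 at 8.38, 8.95, 8.69, 8.97 and 9.18, and MPP3 at 8.40, 8.99 and 7.68. GMP, PreGr and Gr lay between 6.40 and 7.22, below every array of the earlier populations. The order of means was CMP, LT-HSC, MPP2, ST-HSC, MPP4, MPP3, GMP, PreGr and Gr, over a span of 4.01, or 16.1-fold. Neighbours did not overlap from CMP to LT-HSC, from MPP2 to ST-HSC and from MPP3 to GMP.

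Among the genes of cell shape, Tuba8 peaked in MPP2 and CMP. MPP2 arrays stood at 10.40, 9.77 and 10.79 and CMP arrays at 10.18, 10.05 and 10.18, and every other array was below all 6 of these. MPP3 stood at 9.22, 8.77 and 8.76, and LT-HSC at 9.0, 9.07, 9.34 and 9.16. The lowest populations were MPP4, at 7.99, 8.03, 8.38, 8.28 and 8.59, and ST-HSC, at 8.06, 8.58 and 7.87. GMP, PreGr and Gr lay between 8.90 and 9.53. Tuba8 was the gene whose lowest mean fell in a stem cell population, and the other 5 had theirs in MPP3, GMP or Gr. The order was MPP2, CMP, PreGr, GMP, LT-HSC, Gr, MPP3, MPP4 and ST-HSC, over a span of 2.15, and neighbours did not overlap from CMP to PreGr and from MPP3 to MPP4.

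Cavin2 was high in LT-HSC and CMP and uneven in MPP2. MPP2 arrays 1 and 2 stood at 6.80 and 6.79, and MPP2 array 3 at 8.25, within the range of CMP at 8.10, 8.58 and 8.40. LT-HSC arrays 1 to 3 stood at 8.39, 8.24 and 8.39, and array 4, from set 2, at 7.14. In the other 6 populations all 21 arrays lay between 5.79 and 6.45, below every array of LT-HSC, MPP2 and CMP. The order was CMP, LT-HSC, MPP2, GMP, Gr, PreGr, ST-HSC, MPP4 and MPP3, over a span of 2.44, and the only neighbours without overlap were MPP2 and GMP. MPP2 array 3, the highest of its population for Cavin2, Tuba8 and Slc14a1 and the lowest for Kcnk5, Cd55 and Apoe, also had the highest mean over a list of 19 platelet and megakaryocyte genes, at 0.51 above the mean of all arrays against 0.28 and 0.22. Its part in these values was not tested.

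Apoe had the tightest MPP2 arrays of the 6 genes. They stood at 11.38, 11.19 and 11.14, above every array of every other population. LT-HSC followed at 10.95, 10.86, 10.70 and 10.76 and CMP at 10.83, 11.04 and 10.47. MPP3 stood at 10.31, 10.15 and 10.73, ST-HSC at 10.14, 9.85 and 9.97, and PreGr at 9.69, 9.57 and 9.51. MPP4 stood at 8.99, 9.21, 8.96, 9.32 and 9.68, and Gr at 9.55, 9.21 and 8.91. GMP had the lowest mean, with arrays 1 to 3 at 8.78, 8.89 and 8.83 and array 4, from set 2, at 9.79. The order was MPP2, LT-HSC, CMP, MPP3, ST-HSC, PreGr, MPP4, Gr and GMP, over a span of 2.17, and neighbours did not overlap from MPP2 to LT-HSC, from MPP3 to ST-HSC and from ST-HSC to PreGr.

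**Figure D1:**
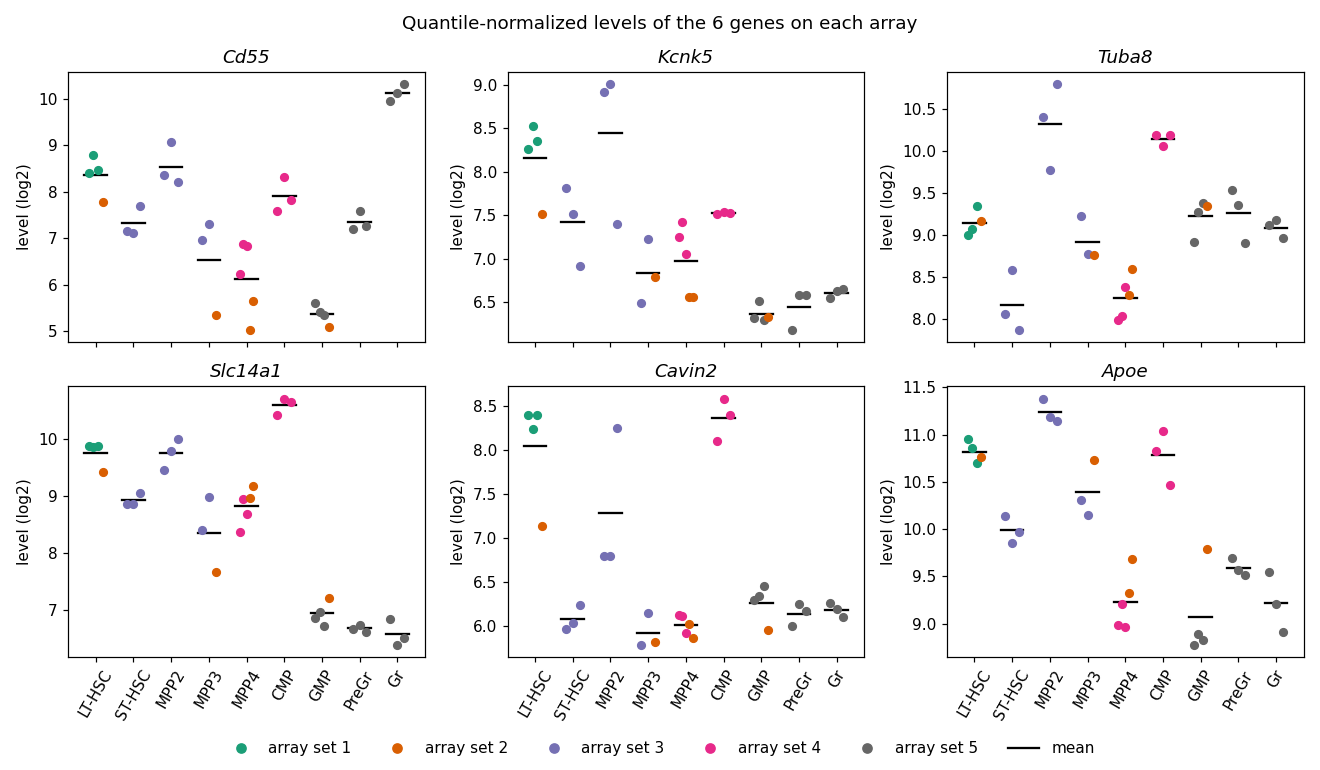
Quantile-normalized log2 levels (y axis) of the 6 genes by population (x axis); each point is 1 array, coloured by array set, and the black bar is the population mean. Cd55 peaks in Gr near 10.13, Slc14a1 and Cavin2 peak in CMP, and Kcnk5, Tuba8 and Apoe have their highest mean in MPP2.

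Set side by side, the 6 genes shared a difference from MPP3 that chose them and differed in their relation to stem cells and CMP. MPP2 was above MPP3 by 2.01 for Cd55, 1.61 for Kcnk5, 1.40 for both Tuba8 and Slc14a1, 1.36 for Cavin2 and 0.84 for Apoe, or from 1.79-fold to 4.02-fold. In all 6, every MPP2 array was above every MPP3 array, which held for 7.34% of all genes; this comparison helped choose them. With the set adjustment these differences were 1.01 to 1.59. Against MPP4 they ran from 0.92 (Slc14a1) to 2.42 (Cd55), without overlap in 5 genes, against 8.51% of all genes. The set adjustment turned the Slc14a1 difference from MPP4 to -0.33 and left the others between 1.19 and 2.24.

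ST-HSC, which shares array set 3 with MPP2, was below MPP2 in the means of all 6 genes, by 0.82 for Slc14a1 to 2.15 for Tuba8. In 5 of them the arrays did not overlap, against 16% of all genes, and Kcnk5 was the exception. LT-HSC lay closer. Only Tuba8 (1.18) and Apoe (0.42) stood above every LT-HSC array, 2 of 6 against 16.7% of all genes, and median centring in place of quantile normalization turned the Apoe difference to -0.07. Cd55 and Kcnk5 differed from LT-HSC by 0.18 and 0.28, Slc14a1 by -0.01 and Cavin2 by -0.76, all with overlapping arrays. Median centring turned Cd55 to -0.19 and Kcnk5 to -0.08. With the set adjustment the differences from LT-HSC were -1.04 for Cd55, -0.69 for Slc14a1 and -0.01 for Cavin2, and 0.85 for Kcnk5, 0.92 for Tuba8 and 0.98 for Apoe. In the values as deposited, whose level differs between these sets, these differences were 0.46 to 2.11. CMP was above MPP2 for Slc14a1 (-0.84, no overlap; 20.7% of all genes lay this way) and Cavin2 (-1.08, overlap). Only Apoe was above every CMP array, by 0.46 (19.3% of all genes), and median centring turned this to -0.04. Tuba8 stood above CMP by 0.18 with overlapping arrays, which became -0.30 with median centring and -0.36 with the set adjustment. All 6 genes were above every GMP array (14.7% of all genes) and every PreGr array (25.9%). They were above every Gr array in 5 (27.8%), with Cd55 below every Gr array (-1.58; 26.1%). The set adjustment turned the Cd55 difference from PreGr from 1.20 to -0.23 and changed no other direction against GMP, PreGr or Gr. These comparisons share the MPP2 arrays.

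How the same genes differed between populations other than the MPPs was tested in 5 comparisons, over 30 gene results. From LT-HSC to ST-HSC, Cd55 and Slc14a1 fell on the quantile-normalized scale, while the values as deposited, whose median over all genes rose by 1.32, gave 0.17 and 0.19, or -1.15 and -1.13 relative to that median. Cd55 changed by -1.04 ± 0.38 (log2, SE; adjusted p = 0.0448 by limma), and by -2.26 ± 0.47 with the set adjustment (adjusted p = 0.0225). Slc14a1 changed by -0.83 ± 0.21 (adjusted p = 0.00541) and by -1.51 ± 0.32 with the set adjustment (adjusted p = 0.0238). For both genes every ST-HSC array was below every LT-HSC array. These are 2 of 6 genes against 0.291% of all genes called lower in both fits. Estimates for all 6 genes were negative, with a median of -0.90 against -0.05 over all genes (-1.22 against 0.09 with the set adjustment). Without the set adjustment 5 genes were called lower, against 14.2% of all genes. Of these, Cavin2 (-1.96 ± 0.26, adjusted p = 2e-05), Tuba8 (-0.97) and Apoe (-0.83) were not called with it, where they were -1.21, -1.23 and -0.27 (adjusted p = 0.195, 0.156 and 0.689). Kcnk5 was at -0.74 and -0.17 and was called in neither.

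The comparison of ST-HSC with LT-HSC rests on few arrays once the sets are adjusted, since LT-HSC 4 and MPP3 3 alone tie set 3 to LT-HSC and neither could be left out. The set-adjusted values thus draw on MPP3, a population that chose the genes. The Cd55 call was lost when any of LT-HSC 1, 2 or 3 or ST-HSC 1, 2 or 3 was left out of the unadjusted fit (adjusted p = 0.0567 to 0.136). Leaving MPP3 2 out of the set-adjusted fit ended both calls, with Cd55 at -2.09 (adjusted p = 0.0567) and Slc14a1 at -1.21 (adjusted p = 0.0688). Leaving out MPP3 1 gave -2.43 and -1.80. Beside these genes 1 of 10 endothelial markers fell in the same step, Tek, which stem cells also express (-1.40 ± 0.19, adjusted p = 3.06e-05 by limma), and its part in the result was not tested.

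From LT-HSC to CMP, Slc14a1 rose by 0.83 ± 0.21 (adjusted p = 0.00496 by limma), and by 1.56 ± 0.28 with the set adjustment (adjusted p = 0.00176). Every CMP array was above every LT-HSC array. This was 1 of 6 genes, against 1.73% of all genes called higher in both fits. Without the set adjustment Tuba8 was called too, 2 of 6 against 11.2% of all genes, at 0.99 ± 0.20 (adjusted p = 0.000633), and it was at 1.28 ± 0.39 with the set adjustment (adjusted p = 0.0528). The other 4 genes were called in neither fit, from -0.64 for Kcnk5 to 0.32 for Cavin2. The median of the 6 genes was 0.14, against 0.03 over all genes, and with the set adjustment 0.78 against 0.08. Leaving out single MPP4 arrays moved the set-adjusted Slc14a1 change between 1.41 and 1.70, and it stayed called. LT-HSC 4 could not be left out of the set-adjusted fit here.

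From CMP to GMP, Slc14a1, Cavin2 and Apoe fell. Slc14a1 fell 12.54-fold, with a log2 change of -3.65 ± 0.21 (adjusted p = 8.89e-13 by limma) and of -3.78 ± 0.28 with the set adjustment (adjusted p = 2.87e-08). Cavin2 fell 4.28-fold, with a change of -2.10 ± 0.26 (adjusted p = 1.63e-06; set-adjusted -2.29 ± 0.42, adjusted p = 0.00438). Apoe fell 3.27-fold, with a change of -1.71 ± 0.20 (adjusted p = 6.49e-07; set-adjusted -1.44 ± 0.26, adjusted p = 0.00406). For these genes all GMP arrays were below all CMP arrays. These are 3 of 6 genes, against 0.517% of all genes called lower in both fits. Without the set adjustment all 6 were called lower, against 6.21% of all genes, and the median of the 6 was -1.90 against 0.01 (-1.48 against 0.02 with the set adjustment). The remaining 3 were at -2.55 (Cd55), -1.16 (Kcnk5) and -0.91 (Tuba8), and at -1.52, -0.51 and -1.10 with the set adjustment (adjusted p = 0.0719, 0.739 and 0.2). GMP 4 could not be left out of the set-adjusted fit. MPP4, which helped choose the genes, helps tie the sets of CMP and GMP in that fit. Leaving out single MPP4 arrays moved the changes between -3.92 and -3.63 for Slc14a1, -2.37 and -2.21 for Cavin2, and -1.62 and -1.26 for Apoe. These genes stayed called. In this step 1 of 12 macrophage markers rose, Adgre1 (1.81 ± 0.17), and 1 of 10 endothelial markers fell, Tek (-1.56 ± 0.19). The part of these markers of other cells in the result was not tested.

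Along the granulocyte path Cd55 rose at both steps, and none of the other 5 genes was called in both fits at either. From GMP to PreGr Cd55 rose 3.95-fold, by 1.98 ± 0.38 (adjusted p = 0.000274 by limma; set-adjusted 1.89 ± 0.23, adjusted p = 1.35e-06). From PreGr to Gr it rose a further 6.87-fold, by 2.78 ± 0.40 (adjusted p = 7.4e-06; set-adjusted 2.78 ± 0.23, adjusted p = 4.97e-09). Within array set 5 alone the rises were 1.89 ± 0.13 (adjusted p = 9.19e-06) and 2.78 ± 0.13 (adjusted p = 1.36e-06). In each step it was 1 of 6 genes, against 6.63% of all genes in the first step (7.07% without the set adjustment) and 8.12% in the second called higher in both fits. The medians of the 6 genes were 0.06 and -0.02, against -0.02 and 0.02 over all genes. Apoe was at 0.52 ± 0.20 from GMP to PreGr (adjusted p = 0.0793), and at 0.76 ± 0.15 with the set adjustment (adjusted p = 0.000444) or 0.76 ± 0.17 without GMP 4 (adjusted p = 0.00263). Kcnk5, Tuba8, Slc14a1 and Cavin2 were called in neither step by either fit, with estimates between -0.26 and 0.16.

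Markers of other cells moved along the same steps as Cd55. Of 9 B and plasma cell markers, 4 rose from GMP to PreGr, led by Jchain (4.86 ± 0.73, adjusted p = 1.29e-05 by limma), and 4 rose from PreGr to Gr, led by Ebf1 (1.41 ± 0.37, adjusted p = 0.00583). The mean of these 9 genes, relative to all arrays, ran from -0.43 to -0.27 in GMP, 0.56 to 0.95 in PreGr and 0.74 to 1.61 in Gr. Some of these markers had lower means at a later step. Jchain went from 9.80 in PreGr to 8.78 in Gr and Xbp1 from 9.57 to 9.20. Cd79b went from 8.66 in GMP to 8.31 in PreGr, and none of these decreases was called in both fits. Of 9 T and NK cell markers, 5 rose into PreGr, led by Cd3d (3.39 ± 0.24), and into Gr 2 rose and 2 fell, with Cd3d rising by 2.80 ± 0.26. Their mean ran from -0.33 to -0.02 in GMP, 0.49 to 0.57 in PreGr and 0.61 to 0.83 in Gr. Other T cell markers of this list moved less than Cd3d. In GMP, PreGr and Gr, Cd3e stood at 7.37, 7.29 and 7.71, Cd4 at 6.79, 6.75 and 6.95, and Cd8a at 7.08, 7.20 and 7.30. Of 12 macrophage markers, 4 rose into PreGr, led by Adgre1 (2.02 ± 0.17), and 4 fell into Gr, and their mean ran from 0.25 to 0.43, 0.81 to 0.89 and 0.55 to 0.67. Of 9 mast cell and basophil markers, Prss34 rose into PreGr (2.43 ± 0.23, adjusted p = 5.87e-09 by limma) and Hdc into Gr (1.70 ± 0.24, adjusted p = 5.78e-06). Their mean ran from 0.65 to 0.76 in GMP, 0.88 to 1.34 in PreGr and 0.72 to 1.53 in Gr. Single markers of this list went both ways. Over GMP, PreGr and Gr, Fcer1a stood at 6.94, 8.27 and 8.61, but Cpa3 at 9.45, 8.48 and 8.26. Cma1 stood at 6.25, 5.95 and 5.87, and Prss34 went from 10.28 in PreGr to 9.95 in Gr. Whether such cells were present, and their part in the Cd55 result, was not tested.

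**Figure D2:**
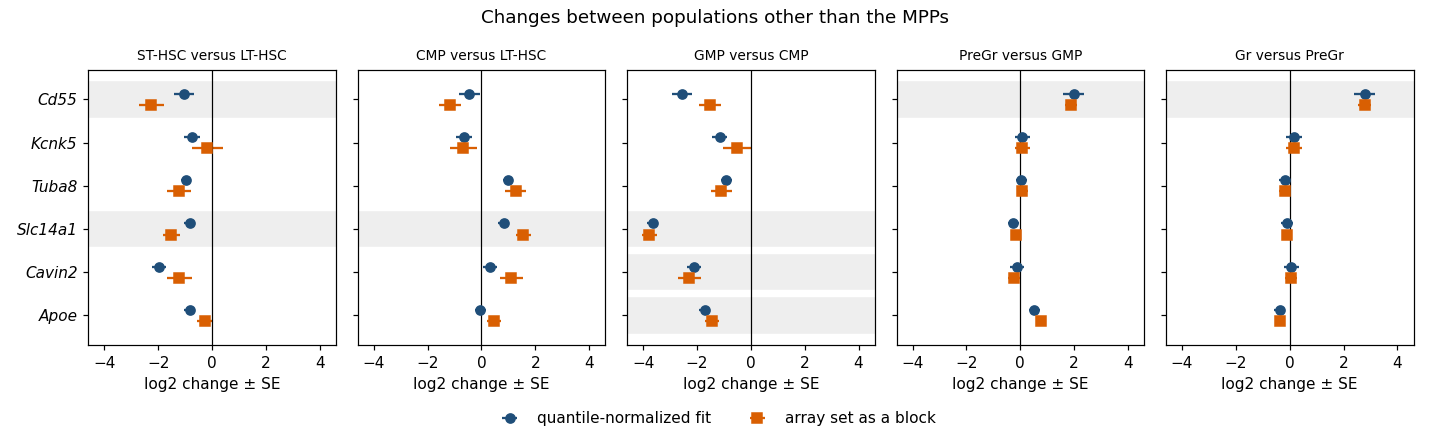
Log2 change ± SE (x axis) of the 6 genes (y axis) in the 5 tested comparisons, with circles for the quantile-normalized fit and squares for the fit with the array set as a block; grey bands mark genes called in both fits. The bands cover Cd55 and Slc14a1 from LT-HSC to ST-HSC, Slc14a1 into CMP, Slc14a1, Cavin2 and Apoe into GMP, and Cd55 alone in the PreGr and Gr steps.

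Relatives of the 6 genes were read from lists of their families, which held 15 complement genes, 13 two-pore potassium channels, 12 tubulins, 12 urea and water channels, 9 caveola genes and 14 genes of apolipoproteins and lipid efflux besides the 6. Between MPP2 and MPP3, and between MPP2 and MPP4, 0 genes of each of these lists were called in both fits, against 0.16% of all genes called higher and 0.502% called lower in the first and 0.226% and 0.772% in the second. Of these 75 genes, 5 had an unadjusted p under 0.05 in limma's fit against MPP3 and 10 with the set adjustment. Against MPP4 these were 23 and 15, of which 10 and 0 passed the adjusted threshold. Their median differences between MPP2 and MPP3 lay between -0.02 and 0.14, beside 0.01 over all genes.

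In the tested comparisons single members of the families rose or fell. Aqp1, the water channel of red cells, rose from LT-HSC to CMP by 1.36 ± 0.14 (adjusted p = 4.55e-08 by limma) and fell from CMP to GMP, with a change of -1.77 ± 0.14 (adjusted p = 4.41e-10), the same 2 steps at which Slc14a1 rose and fell. Aqp9, a channel for water, glycerol and urea, fell into GMP (-1.83 ± 0.18, adjusted p = 3.35e-08) and rose from PreGr to Gr by 2.20 ± 0.19 (adjusted p = 1.95e-09). Of the lipid genes, Scarb1, the receptor for high-density lipoprotein, rose into CMP by 0.59 ± 0.14 (adjusted p = 0.004). The cholesterol exporter Abcg1 fell into GMP (-0.74 ± 0.13, adjusted p = 0.000156), beside the fall of Apoe. Into PreGr, 3 of the 14 lipid genes rose, the lipoprotein receptor Lrp1 (1.04), the lipase Lpl (0.71) and the apolipoprotein gene Apoc1 (0.41), and Lrp8 fell (-0.46). Into Gr 1 rose and 4 fell, namely Scarb1 (-1.08), Lrp1 (-0.89), Lpl (-0.60) and Apoc1 (-0.56). From CMP to GMP, where Cavin2 fell, the caveola list had 0 of 9 genes called in both fits and 1 at an unadjusted p under 0.05 in each limma fit. Its later calls were rises of Cav2 (0.82) and Pacsin2 (0.31) into PreGr and a fall of Cav2 (-1.09) into Gr. The tubulin list had 0 of 12 called in both fits from CMP to GMP, with 4 at an unadjusted p under 0.05 in limma's fit and 1 with the set adjustment. At the granulocyte steps Tubb2a rose into PreGr (1.11) and Tubb5 (-1.27), Tubb2a (-1.08) and Tubb6 (-0.70) fell into Gr. Of the two-pore channels Kcnk16 rose into Gr by 0.41 ± 0.13 (adjusted p = 0.024 by limma).

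Complement genes were called in both fits at the granulocyte steps alone among the 5 tested comparisons. In the fit without the set adjustment 5 of 15 were called from LT-HSC to ST-HSC, 4 from LT-HSC to CMP and 2 from CMP to GMP, and with it 0, 2 and 0. C5ar1, the receptor for C5a, rose by 3.35 ± 0.17 into PreGr (adjusted p = 1.03e-14 by limma) and by 1.98 ± 0.18 into Gr (adjusted p = 4.47e-09). Itgam, the alpha chain of complement receptor 3 and the Mac1 sort marker, rose by 2.80 and 1.52, between populations that Mac1 helped to define. C3ar1, the C3a receptor, rose by 1.70 ± 0.30 into PreGr. Cd46 rose by 0.97 ± 0.30 into Gr (adjusted p = 0.0191 by limma), from 6.38 to 7.35. Cd93, a surface lectin, fell at both steps, with changes of -1.15 and -0.85. In counts this was 3 of 15 up and 1 down into PreGr and 4 of 15 up and 1 down into Gr, with medians of 0.03 and 0.30.

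The megakaryocyte and erythroid lists show what else differed in MPP2. Of 19 platelet and megakaryocyte genes, 4 were higher in MPP2 than in MPP3. These were the chemokine Pf4 (3.62 ± 0.53, adjusted p = 0.000277 by limma), the platelet glycoprotein Gp5 (1.82 ± 0.27, adjusted p = 0.000344), the thrombin receptor F2r (0.76 ± 0.15, adjusted p = 0.00694) and the integrin Itga2b (0.56 ± 0.13, adjusted p = 0.0282). Against MPP4, 3 of 19 were higher, namely the tetraspanin Cd9 (1.35 ± 0.19), F2r (0.99 ± 0.13) and Itga2b (0.91 ± 0.12). The list medians were 0.29 and 0.36. Of 18 erythroid genes, Icam4, a red cell adhesion protein, was higher than in MPP3 (1.02 ± 0.20, adjusted p = 0.00636) and 0 were called in both fits against MPP4, where 10 had an unadjusted p under 0.05 in limma's fit and 5 with the set adjustment. Of 14 transcription factors of these lineages, 0 were called in both fits against MPP3 (5 and 7 at an unadjusted p under 0.05 in limma's fits), and Gata2 (0.84 ± 0.13), Zfpm1 (0.80 ± 0.13) and Tal1 (0.54 ± 0.11) were higher than in MPP4.

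Genes of the same lists fell from CMP to GMP beside Slc14a1, Cavin2 and Apoe. In this step 4 of 19 platelet genes fell, with Pf4 at -4.05 ± 0.50 (adjusted p = 1.36e-06 by limma), Plek at -1.99, F2r at -1.60 and Itga2b at -1.30. Of the erythroid genes 3 of 18 fell, Car2 (carbonic anhydrase 2, -2.42 ± 0.13), Aqp1 (-1.77) and Klf1 (-0.91). Of the transcription factors 6 of 14 fell, among them Zfpm1 (-1.31), Gfi1b (-1.16), Lmo2 (-0.99) and Bcl11a (-0.98). List medians were -0.53, -0.35 and -0.80, against 0.01 over all genes. On single arrays the platelet list stood at 0.22 to 0.51 in MPP2, -0.19 to -0.15 in MPP3 and -0.39 to -0.19 in MPP4, relative to the mean of all arrays. It stood at 0.32 to 0.45 in CMP and -0.62 to -0.49 in GMP. Later, beside Cd55, 5 of the 19 rose into PreGr, led by Cd9 (1.66 ± 0.20), and 6 rose into Gr, led by Thbs1, which encodes thrombospondin 1 (2.34 ± 0.28).

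**Figure D3:**
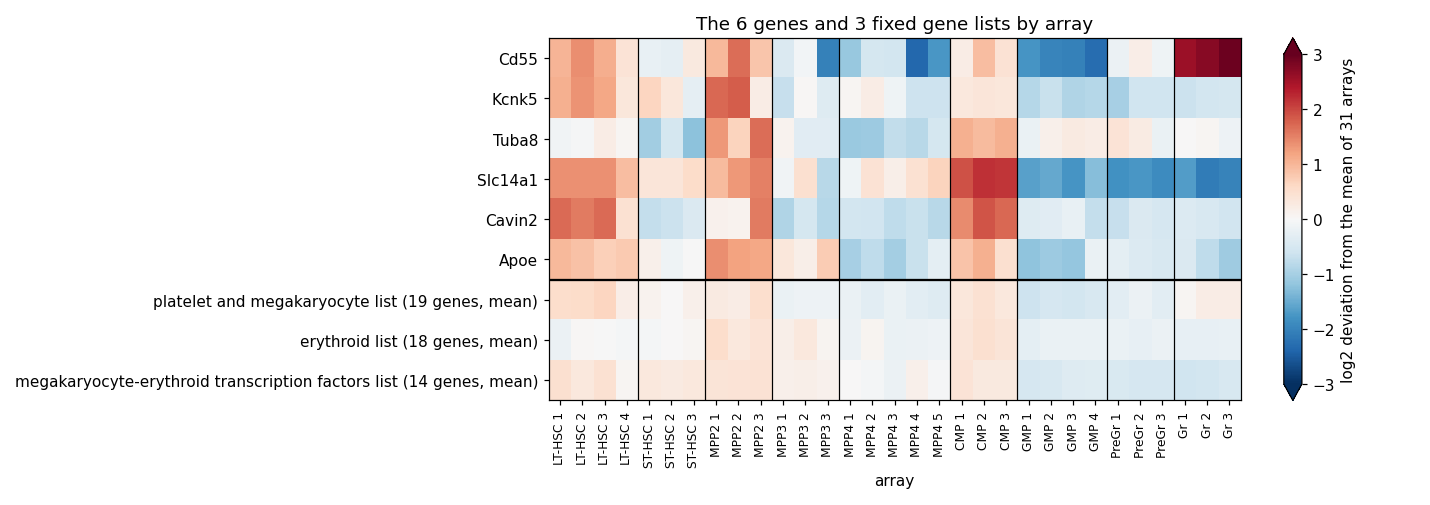
Log2 deviation from the mean of the 31 arrays (colour, ending at 3 units either way) for the 6 genes and for the mean of 3 gene lists (rows) on each array (columns, grouped by population). The platelet list is above 0 on the LT-HSC, ST-HSC, MPP2, CMP and Gr arrays and below 0 on those of MPP3, MPP4, GMP and PreGr, and Cd55 alone of the 6 genes is high in Gr.

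Markers of other cells were read in the MPP gates too. Of 12 macrophage markers, which matter for Apoe because macrophages make it, 0 were called in both fits between MPP2 and MPP3 or MPP4, with 0 at an unadjusted p under 0.05 against MPP3 and 6 against MPP4 in limma's fit. Their mean ran from -0.28 to -0.15 in MPP2, -0.19 to -0.14 in MPP3 and -0.42 to -0.21 in MPP4. The defining marker Adgre1 stood at 5.20, 5.37 and 5.38 in these populations, against 9.35 in PreGr. Single markers went both ways. C1qa, C1qc, Mrc1 (6.40 against 5.95), Cd5l, Mertk, Siglec1 and Marco had higher means in MPP2 than in MPP4. Adgre1, C1qb, Cd68 (7.98 against 8.49), Csf1r and Vcam1 had lower means in MPP2. Of 10 stromal markers and of 9 mast cell or basophil markers 0 were called in both fits in either comparison. At an unadjusted p under 0.05 these were 1 and 5 in limma's fit against MPP3 and 5 and 4 against MPP4. The mean of the mast cell and basophil markers ran from -0.38 to -0.03 in MPP2 and -0.28 to 0.19 in MPP3. In MPP4 this mean was lower, at -0.79 to -0.49. Without the set adjustment 2 of these 9 were called against MPP4 and 0 against MPP3, and with it 1 and 2. B and plasma cell markers were lower in MPP2 than in MPP3, with a mean of -0.15 to 0.60 in MPP2 and 0.87 to 1.27 in MPP3. Blnk was lower in MPP2 than in MPP3 (-1.17 ± 0.20, adjusted p = 0.00144 by limma). In MPP4 the mean of these markers was -0.67 to -0.09. Between MPP2 and MPP4, 4 of the 9 were called without the set adjustment and 0 with it. Among 9 T and NK markers Thy1 was lower in MPP2 than in MPP3 (-1.11 ± 0.22, adjusted p = 0.00824). Among 10 endothelial markers Tek, which stem cells also express, was higher than in MPP4 by 1.10 ± 0.19. In CMP, 3 of 9 mast cell and basophil markers were higher than in LT-HSC, Mcpt8 (3.35), Cpa3 (3.16) and Hdc (2.46), beside the rise of Slc14a1. In the same comparison 1 of 12 macrophage markers, Csf1r (1.40), and 1 of 10 stromal markers, Pdgfrb (0.82), were higher. Of 10 endothelial markers 3 were lower, Emcn (-1.98), Tek (-1.35) and Esam (-0.98). Other markers of these lists went against the ones named. In LT-HSC and CMP, the macrophage marker Mrc1 stood at 6.27 and 5.96. The stromal marker Cxcl12 stood at 6.36 and 6.21, and the endothelial marker Pecam1 at 8.90 and 9.41. The part of these markers in the levels of the 6 genes was not tested.

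Genes with the most similar pattern were named by Pearson correlation over the 31 arrays, among 6253 genes whose population means spanned at least 1 log2 unit. These correlations are descriptions, since arrays share populations and array sets. The MPP arrays that chose the 6 genes are among them, so likeness to other genes high in MPP2 is partly set by that choice. For Slc14a1 they were the highest of the 6 genes, with the vesicle GTPase Rab27b at 0.94, Ddah2 at 0.93, F2r at 0.92, and Abcb4 and Adcy6 at 0.91. For Cavin2 they were Ces2g (0.88), the CD150 gene Slamf1 (0.87), P3h2 (0.86), Clca3a1 (0.85) and Pde5a (0.80). CD150 is itself a marker of the LT-HSC and MPP2 gates. For Kcnk5 they were Cavin1, which encodes another caveola coat protein (0.88), Tfr2 and Aldh1a1 (0.84), Tgfbr3 (0.83) and Septin8 (0.81). For Apoe they were Tfr2 and Tgfbr3 (0.86), Gfi1b and Gp5 (0.83) and Pcdh7 (0.82), so Tfr2, the transferrin receptor 2 gene, and Tgfbr3 are named for both Kcnk5 and Apoe. For Tuba8 the values were lower, with the red cell antigen gene Kel at 0.78, Aqp1 at 0.73, Klf1 and Itga2b at 0.70 and Ska1 at 0.69. For Cd55 they were Ptpn12, Rap1b and Plxnc1 (0.87), Atp8a1 (0.86) and Rab11a (0.82), and none of these 5 is in the platelet, erythroid or transcription factor lists.

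The 6 genes did not form a single pattern among themselves. Because the MPP arrays that chose them enter here too, some positive correlation among the 6 was set by the choice. Over the 31 arrays Kcnk5, Slc14a1 and Apoe correlated with each other at 0.73 in each pair, and Cavin2 with Slc14a1 at 0.69 and with Apoe at 0.65. Tuba8 was closest to Cavin2 (0.60) and Apoe (0.55), and at 0.25 with both Kcnk5 and Slc14a1. Cd55 stood furthest apart, from 0.15 with Slc14a1 to 0.44 with Kcnk5.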

How the data were processed

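RNA of 31 samples in 9 populations was amplified and hybridised to whole-transcript gene arrays, 1 array per sample. The authors deposited log2 values, made with RMA per the submitters' processing notes; its version and the genome build are not given in the sources used here. These values run from 1.39 to 14.29 over 35557 probes, of which 21789 are annotated to 1 gene, 1621 to several genes and 12147 to none. The gene reference matched 21698 of the first kind. The brightest probe stood for each of 999 genes with more than 1, which left 19938 genes.

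Here values were quantile-normalized over all probes and every array entered 1 linear model (R 4.3.3, limma 3.58.1; lmFit, contrasts.fit and eBayes; 1 mean per population), which left 22 residual degrees of freedom. Adjusted p-values are Benjamini-Hochberg over all genes of a comparison, two-sided. The set-adjusted fit added a block for the array set and left 18, and 2 or more identical values linked arrays into a set. Alternatives were median centring, the deposited values, a filter on dim genes, the mean of probes, an intensity trend, replicate blocks, fits within a set and leaving out each array. The fits were tested on simulated data. The design text calls replicates biological and the labels name no animal or pool, so p-values measure the spread between these samples. The number of arrays limits the precision.

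The 6 genes, the 15 gene lists and the motifs were chosen with earlier results of these data known. Named genes were the 6, up to 4 called genes with the largest change in each list and comparison, the 5 genes most correlated with each of the 6 (predicted genes passed over), and defining or sort markers. The omission of single arrays from the set-adjusted fit was chosen after seeing the data. Python 3.11.15 with matplotlib 3.10.9 drew the figures.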

Additional observations from a re-analysis of the deposited data

Results flagged for a closer look

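In 18 sets of 4 or 5 arrays (the 6 genes in LT-HSC, MPP4 and GMP), 3 values, on 2 arrays, lay apart from the others of their population by Dixon's test, and chance alone sets apart about 1 in 20. Slc14a1 stood at 9.43 on LT-HSC 4, against 9.87 to 9.88 on the other LT-HSC arrays. Cavin2 stood at 7.14 on the same array, against 8.24 to 8.39. Apoe stood at 9.79 on GMP 4, against 8.78 to 8.89. Both arrays belong to array set 2, away from the set of the arrays they are compared with.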

How the results depend on the processing

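Counts of called genes moved by over 1.5 times in these cases, and the cause was not tested except where fewer genes were tested. The count for ST-HSC against LT-HSC went from 4542 to 293 with the array set as a block, 2232 among bright genes, 8623 with median centring and 18431 in the deposited values. For CMP against LT-HSC it went from 4291 to 1146 with the set block, 1935, and 12451 in the deposited values, and for GMP against CMP from 2323 to 264, 1353 and 1534. The deposited values gave 1686 in place of 3316 for PreGr against GMP and 2004 in place of 3857 for Gr against PreGr. For MPP2 against MPP3 the 192 calls became 60 with median centring, 26 in the deposited values and 40 within array set 3. For MPP2 against MPP4 the 2943 calls became 422 with the set block, 1951 among bright genes and 16815 in the deposited values. Leaving out 1 array gave 2544 to 6555 (ST-HSC), 2900 to 5470 (CMP against LT-HSC), 1394 to 2540 (GMP), 2501 to 3029 (PreGr), 2534 to 3877 (Gr), 97 to 387 (MPP2 against MPP3) and 1628 to 3331 (MPP2 against MPP4).

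Directions turned in the deposited values for ST-HSC against LT-HSC, with Cd55 at 0.17, Kcnk5 at 0.49, Tuba8 at 0.17, Slc14a1 at 0.19 and Apoe at 0.11 (Cavin2 stayed at -0.65), and for Apoe in CMP against LT-HSC, at 0.51 (adjusted p = 0.0188 by limma). Among the MPP2 differences, median centring turned Apoe (-0.07), Cd55 (-0.19) and Kcnk5 (-0.08) against LT-HSC, and Apoe (-0.04) and Tuba8 (-0.30) against CMP. The set block turned Slc14a1 against MPP4 (-0.33), Cd55 against LT-HSC (-1.04) and PreGr (-0.23), and Tuba8 against CMP (-0.36). The deposited values turned Slc14a1 (0.95) and Cavin2 (0.46) against LT-HSC. Of uncalled estimates, Apoe in CMP against LT-HSC turned from -0.04 to 0.46 with the set block, to 0.06 with the replicate block and to 0.28 with both; Kcnk5 in PreGr against GMP turned to -0.05 with the replicate block and Cavin2 to 0.02 in the deposited values. Leaving out 1 array turned 7 estimates, all uncalled or of overlapping arrays and within 0.28 of 0 with every array. Of the 30 gene results, the set block ended 7 calls and made 1, and the intensity trend and the mean of probes changed none. Of the 6 genes 4 passed the filter on dim genes, without Kcnk5 and Cavin2, and the 20 results kept their calls.

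The labels tie same-numbered arrays by number alone. Their residual correlations ran from -0.209 to 0.173, and no comparison had every pair above 0.1. With so few arrays per population these values cannot settle whether the arrays were paired. With the replicate block the counts were 6392 (ST-HSC), 5178 (CMP), 2621 (GMP), 3704 (PreGr), 4320 (Gr), 272 (MPP2 against MPP3) and 4094 (MPP2 against MPP4). With replicate block and set block together they were 1370 for CMP and 491 for GMP, and the fit could not be made for ST-HSC against LT-HSC and MPP2 against MPP4. Fits within a set were not possible for ST-HSC against LT-HSC, CMP against LT-HSC, GMP against CMP and MPP2 against MPP4. Signal over background limits the low plateaus, for which no detection calls were used here.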
